A study of Homo sapiens with 6 samples.

Results

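The 7SL RNAs encoded by RN7SL1, RN7SL2 and RN7SL3 are the RNA scaffold of the signal recognition particle (SRP). The members are the positions that lie inside these 3 genes on the strand of the gene, with borders from GENCODE release 44. The deposited tables hold 93 such positions, of 387463 in the series. A table lists only positions with a reference base of G, A or C (730 in the 3 genes), and only those at which reads with T were seen. Under imbalanced dNTP, 21 positions of the copies were listed, and under balanced dNTP 78. Only 6 stood in both tables.

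Nm-mut-seq was performed on chromatin-associated RNA (caRNA) of HepG2, a cell line from a human liver cancer, and the labels name no genetic change or drug for any library. In this assay a 2′-O-methylated base (Nm) is read as T when reverse transcriptase runs on an unequal supply of nucleotides. The RNA of each of 3 replicates was divided after ligation between 2 reactions. The imbalanced dNTP libraries (n = 3) combined 1 mM dATP with the other dNTPs at 2 µM. The balanced dNTP libraries (n = 3), which serve as the input, had the same 1 mM dATP and the others at 1000 µM. Ribosomal RNA and RNA shorter than 200 nt had been removed, and reads were 100 nt long. caRNA is a bulk preparation, so that less 7SL on chromatin and less 7SL per cell cannot be told apart. No RNA of other compartments is compared here.

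SRP delivers ribosomes that are making secretory or membrane proteins to the endoplasmic reticulum. 7SL RNA is made by RNA polymerase III and folds into a long rod. Its 5′ and 3′ ends pair into the Alu domain, which binds SRP9 and SRP14 and slows translation. The middle of the RNA is the S domain, which binds SRP19, SRP68, SRP72 and SRP54, the subunit that holds the signal peptide. Alu repeats, the most abundant short interspersed elements of the human genome, arose from 7SL, and the genome also holds many truncated 7SL copies. Depth and mutation ratio (reads with T over all reads, in percent) are given here along the RNA and between the copies. The Alu domain was taken as the first 100 nt and the last 50 nt, and the S domain as nt 101 to 249 (250 in RN7SL2).

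All 3 genes lie on chromosome 14 of hg38. RN7SL1 (ENSG00000276168.1) spans chr14:49586580-49586878 on the plus strand and overlaps RPS29, a ribosomal protein gene, on the other strand. RN7SL2 (ENSG00000274012.1) spans chr14:49862550-49862849 on the minus strand and overlaps the annotated gene ENSG00000282885 on the same strand, from which its reads cannot be separated. RN7SL3 (ENSG00000278771.1) spans chr14:49853616-49853914 on the minus strand and overlaps no other gene. No position was listed on the strand opposite to a copy (0 in either table).

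Where a read belongs depends on how the copies differ. RN7SL1 and RN7SL2 were 98.7% identical with 4 differences over 299 nt, RN7SL1 and RN7SL3 97.7% with 7, and RN7SL2 and RN7SL3 96.3% with 11. RN7SL2 has 1 more base than the others, at its 3′ end.

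Positions are counted from 1 at the 5′ end, and a substitution names the base of RN7SL1 first. RN7SL2 differed from RN7SL1 by C52T, T53G, T69C and G275A. RN7SL3 differed from RN7SL1 by G62C, C70T, A118G, C242T, C285T, C293T and T295C. The first 51 nt were identical in all 3 copies. The longest identical stretch, of 123 nt, ran from nt 119 to nt 241 and covered most of the S domain. It contained 103 G, A or C positions in each copy. Over this stretch the tables listed 5 positions of RN7SL1, 8 of RN7SL2 and 5 of RN7SL3.

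The number of places where a read could map differed strongly along the RNA. The most frequent 30-mer of the copies, which starts at nt 21 within the 5′ Alu end, occurs 43857 times in the chromosomes of hg38. For 50-mers the highest number was 7 in RN7SL1 and RN7SL3 and 20 in RN7SL2. Of the nucleotides of RN7SL1, 162 were covered by no 50-mer that occurs once in the genome. The number was 169 for RN7SL2 and 43 for RN7SL3. RN7SL3 was therefore the copy whose sequence was most often unique, with a median of 66.0% of the 50-mers over a nucleotide being unique, against 0% in RN7SL1 and RN7SL2.

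Depth along the RNA was read from the balanced dNTP table, which lists more positions. In RN7SL1, 36 positions from nt 6 to nt 298 had a median depth of 179, 108 and 184 reads in replicates 1, 2 and 3. In RN7SL2, 27 positions from nt 2 to nt 294 had a median depth of 131, 94 and 121 reads. In RN7SL3, 15 positions from nt 37 to nt 152 had a median depth of 79, 43 and 76 reads. Replicate 2 was the lowest in every copy, as it also was in the depth summed over all listed positions of the series. The members made up 0.0320% to 0.0375% of that summed depth under balanced dNTP, and 0.00820% to 0.00999% under imbalanced dNTP. These sums cover listed positions only, 78 of the members under balanced and 21 under imbalanced dNTP, against 246881 and 176343 in the series. The shares therefore depend on how many positions were listed, and they do not compare the depth of the copies between the conditions.

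The 3′ end held the deepest positions of RN7SL1 and RN7SL2. RN7SL1 rose to 303 reads at nt 271 in replicate 1, to 194 reads at nt 267 in replicate 2 and to 248 reads at nt 270 in replicate 3. RN7SL2 rose to 314 reads at nt 269, 203 reads at nt 272 and 270 reads at nt 272. Both peaks lie just before nt 275, where RN7SL2 differs from the other copies. In RN7SL3 the deepest position was nt 104 in replicates 1 and 2, with 107 and 60 reads, and nt 91 in replicate 3, with 90 reads. These positions lie between the differences at nt 70 and nt 118. The middle of RN7SL1 and RN7SL2 was hardly listed. No position of RN7SL1 was listed over 101 nt between nt 104 and nt 206, and none of RN7SL2 over 140 nt between nt 61 and nt 202. Since a position with no T read is not listed, the depth there is unknown.

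**Figure D1:**
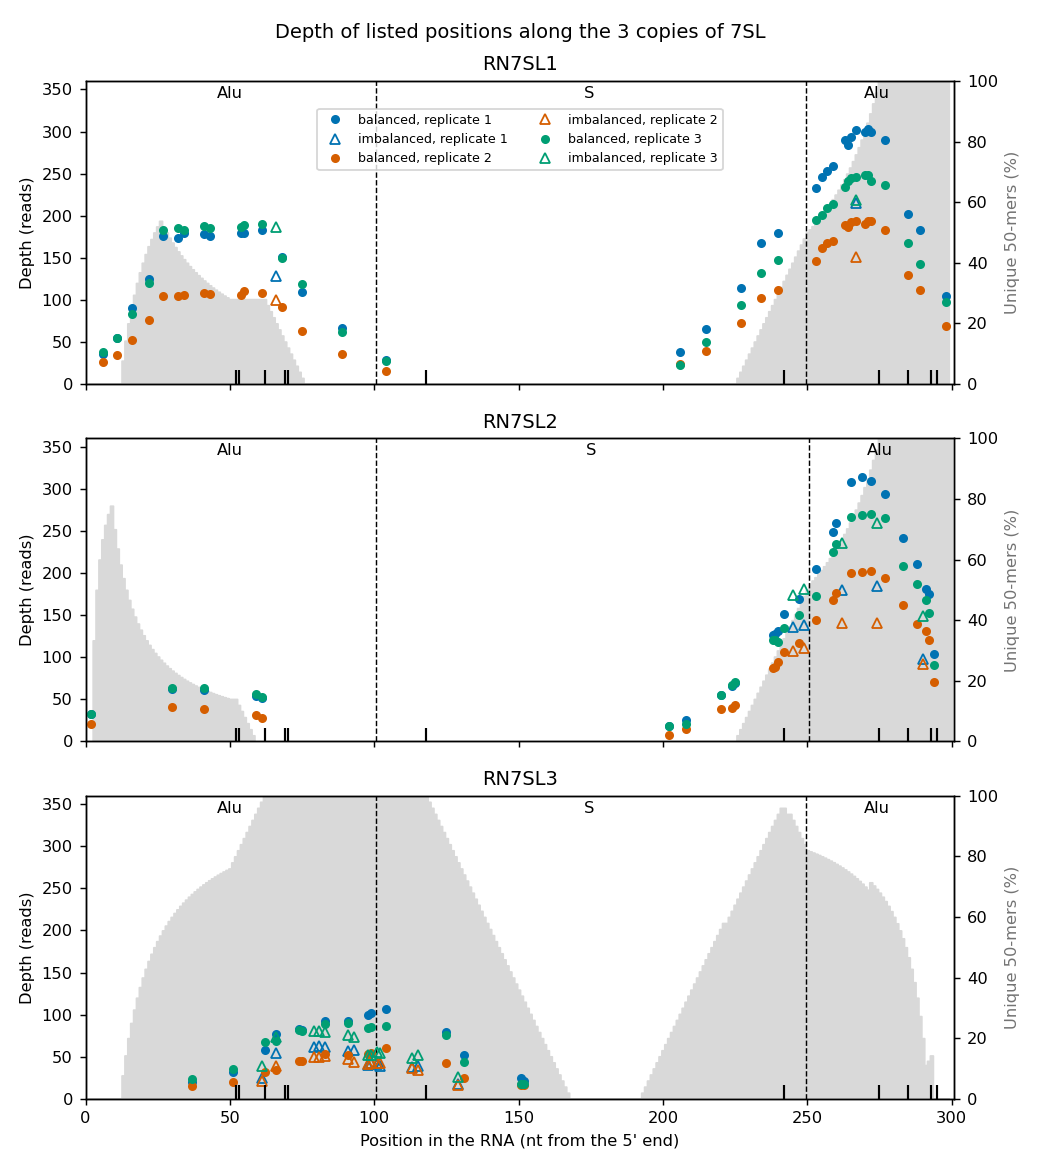
Depth in reads at each listed position (y axis, left) against the position in nt from the 5′ end (x axis) for RN7SL1, RN7SL2 and RN7SL3, with filled circles for the 3 balanced and open triangles for the 3 imbalanced dNTP libraries. The grey area is the percentage of 50-mers over each nucleotide that occur once in hg38 (y axis, right), black ticks mark the 11 differences between the copies, and dashed lines are the domain borders. RN7SL1 and RN7SL2 are deepest near nt 270, whereas RN7SL3 is deepest near nt 100 and has no listed position after nt 152.

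Median depth at the listed positions was higher in each copy in the class with more unique 50-mers. In RN7SL1 the median balanced depth was 46.5, 30 and 44 reads at the 6 listed positions that no unique 50-mer covers. It was 272, 177 and 224 reads at the 16 positions where at least 50% of the 50-mers are unique. The same classes had 53, 29.5 and 54 reads (8 positions) and 246, 165 and 217 reads (12 positions) in RN7SL2. RN7SL3 had 23, 16 and 18 reads at 2 positions with under 50% and 82, 45 and 80 reads at 13 positions with at least 50%. The order was the same in each of the 3 libraries. The 2 positions of RN7SL3, nt 151 and nt 152, are adjacent, and its depth after nt 152 is unknown. Of the 6 positions of RN7SL1, nt 6 and nt 11 lie near the 5′ end. All 75-mers over them are unique, yet they had 36, 26 and 38 reads and 55, 34 and 55 reads. The classes therefore do not separate uniqueness from nearness to an end of the RNA. How far mapping sets the depth along these RNAs was not tested.

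Over the listed positions, the S domain was shallower than the Alu domain, but the S domain of RN7SL2 was deeper than its 5′ Alu end. Under balanced dNTP, 21 of the 371 G, A or C positions in S and 57 of the 359 in Alu were listed. Most of both domains therefore has no depth value. Over all copies under balanced dNTP, the median depth was 178, 107 and 173 reads at 57 Alu positions and 69, 43 and 70 reads at 21 S positions. The log2 ratio of S over Alu was -1.33 ± 0.033 (SD, n = 3), lower in 3 of 3 replicates, with p = 0.25 in a two-sided exact paired permutation test, the smallest p that 3 pairs allow. The difference was thus far larger than the spread between replicates, although 3 pairs cannot pass a threshold of 0.05. Under imbalanced dNTP the median depth was 62, 50 and 79.5 reads at 14 Alu positions and 39, 42 and 54 at 7 S positions, a log2 ratio of -0.49 ± 0.22 (SD, n = 3, exact p = 0.25). Within single copies under balanced dNTP the log2 ratio was -1.12 ± 0.23 in RN7SL1, -1.02 ± 0.12 in RN7SL2 and -0.80 ± 0.12 in RN7SL3 (SD, n = 3). The ratio over all copies was thus more extreme than that of any single copy. RN7SL3, the shallowest copy, gave 10 of the 57 Alu and 5 of the 21 S positions. With the Alu domain narrowed to the first and last 50 nt, RN7SL3 turned to 1.00 ± 0.34, a definition that leaves out its deep positions between nt 51 and nt 100. The S domain is also where most of the stretch without copy differences lies, and domain and sequence uniqueness cannot be told apart in RN7SL1 and RN7SL2.

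A closer look at the 3 regions showed that the ends differed as well. The 5′ Alu end of RN7SL1 (first 100 nt, 15 balanced positions) had 174, 104 and 183 reads. The 5′ end of RN7SL2 (5 positions) had 54, 31 and 56 reads, below its S domain with 97.5, 65 and 94 reads (10 positions) in all 3 libraries. At their 3′ ends, the last 50 nt, both copies had similar depth, with 284, 183 and 234 reads in RN7SL1 (15 positions) and 246, 165 and 217 reads in RN7SL2 (12 positions). RN7SL3 had no listed position after nt 152 in either table, although that stretch holds 122 G, A or C positions. Over the same nucleotides, RN7SL1 had 1 imbalanced and 20 balanced positions and RN7SL2 had 5 and 22. In this stretch of RN7SL3 the median was 42.0% unique 50-mers and 78.4% unique 75-mers, against 2.00% and 33.8% in RN7SL1. For 50-mers this was below the median of 66.0% over the whole of RN7SL3. Why no position was listed there was not tested.

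Between the copies, the ratio of depth depended on the positions used. The median balanced depth of RN7SL1 was 1.34 ± 0.19 times that of RN7SL2, 2.40 ± 0.12 times that of RN7SL3, and RN7SL2 was 1.81 ± 0.33 times RN7SL3 (mean ± SD, n = 3 replicates). At the 8 positions listed in both RN7SL1 and RN7SL2, the ratio was 1.04 ± 0.037. These 8 positions did not share 1 ratio. At nt 61, between the differences at nt 53 and nt 69, RN7SL1 had 183, 108 and 190 reads and RN7SL2 52, 28 and 53. At nt 272, RN7SL1 had 299, 194 and 241 reads and RN7SL2 309, 203 and 270. RN7SL1 was deeper than RN7SL2 in all 3 libraries at nt 41, 61, 240 and 253, the last of which lies in the 3′ Alu end. At nt 259 it was deeper in replicates 1 and 2 only. At nt 265, 272 and 277 it was slightly shallower in all 3.

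RN7SL1 and RN7SL3 shared 2 balanced positions, which went opposite ways. At nt 75, RN7SL1 had 109, 63 and 119 reads against 82, 45 and 80 in RN7SL3. At nt 104, it had 29, 15 and 27 reads against 107, 60 and 86. The mean ratio at these 2 positions was 0.784 ± 0.083, below 1, while that over all listed positions was above 1. No position was listed in all 3 copies. No order of abundance of the copies is therefore read from the depth. Under imbalanced dNTP the ratios were 1.16 ± 0.068, 3.60 ± 0.60 and 3.09 ± 0.41 for the same pairs, and 2.49 ± 0.11 at nt 66, the only position shared by RN7SL1 and RN7SL3 there.

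Reads at positions where the copies differ carried the base of the copy to which they were assigned. At nt 285 of RN7SL1 under balanced dNTP, the base of RN7SL3 was seen in 1 of 202, 0 of 129 and 0 of 168 reads. At nt 242 of RN7SL2 it was seen in 0 of 151, 0 of 106 and 1 of 135 reads. At nt 62 of RN7SL3, the base shared by RN7SL1 and RN7SL2 was seen in 0 of 58, 0 of 32 and 0 of 67 reads, with Wilson 95% upper bounds of 6.21%, 10.7% and 5.42%. These were the differing positions that either table listed. Since a read is placed where it matches best, these counts do not show that each read came from the copy named, and reads that cover no difference carry no such mark.

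Reads with T were rare under balanced dNTP. Of the 78 listed positions, 72 had a single T read over the 3 libraries, and no library had more than 2 at any position. Over the listed positions, the balanced mutation ratio was 0.254% ± 0.069 in RN7SL1, 0.275% ± 0.11 in RN7SL2 and 0.611% ± 0.11 in RN7SL3 (SD, n = 3). These ratios are bounded from below, because a position enters the table only with a T read.

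Under imbalanced dNTP, RN7SL3 had most of the listed positions. It had 14 of its 241 G, A or C positions listed, against 2 of 244 in RN7SL1 and 5 of 245 in RN7SL2. The 21 positions were 13 G, 2 A and 6 C. At 13 of them, 3 or more T reads, the minimum to be listed, occurred in 1 library only, at 6 in 2 libraries and at 2 in all 3. None of the 21 lay at a nucleotide without a unique 50-mer, where 134, 139 and 38 G, A or C positions of RN7SL1, RN7SL2 and RN7SL3 lie. A T (U in the RNA) preceded 12 of the 21, or 57.1%, and 16 of the 78 balanced positions, or 20.5%, against 20.6% of all G, A and C positions of the copies. Of the 12, 7 lay in RN7SL3 between nt 61 and nt 129, some close enough to stand in the same reads. The share over the series is not given, and no preference is read from these counts. UNU, with U on both sides, was found at 2 of the 21.

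The mutation ratio over listed positions was 1.17%, 0.398% and 0.988% in RN7SL1 (mean 0.851% ± 0.40), 1.49%, 1.52% and 0.700% in RN7SL2 (1.24% ± 0.47), and 4.71%, 6.64% and 5.71% in RN7SL3 (5.69% ± 0.97; SD, n = 3). The depth of RN7SL3 was lower, and the threshold of 3 T reads admits only higher ratios there. At the median imbalanced depth, 3 reads are 7.23%, 7.06% and 5.50% in RN7SL3, but 1.75%, 2.39% and 1.48% in RN7SL1. The means of the copies over listed positions are therefore not comparable as levels.

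**Figure D2:**
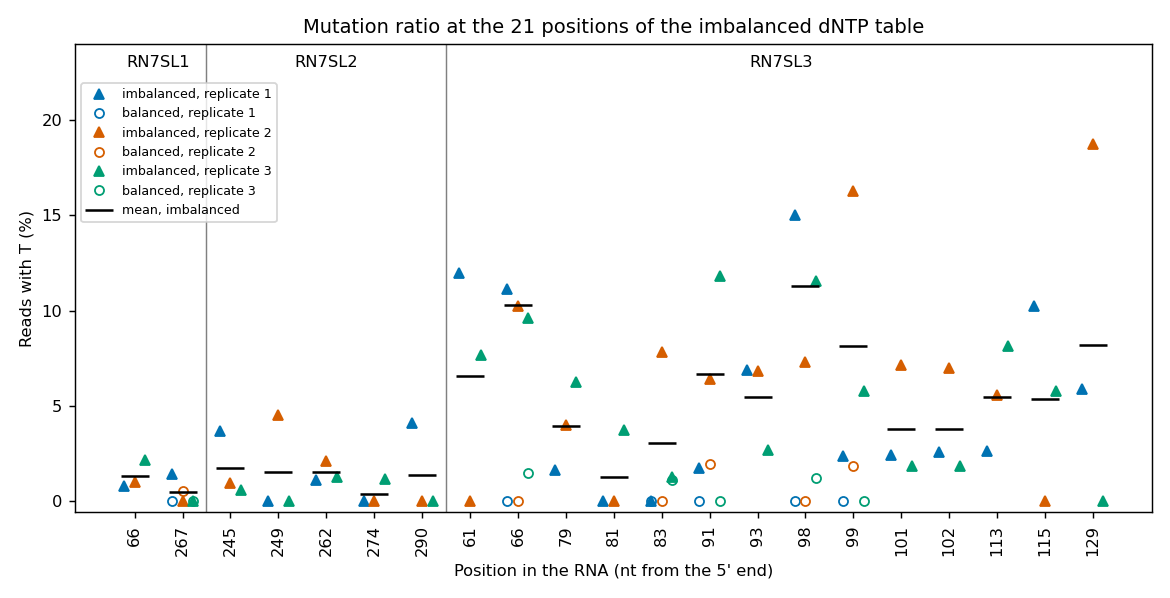
Reads with T in percent of depth (y axis) at the 21 positions listed under imbalanced dNTP (x axis, nt from the 5′ end), for RN7SL1, RN7SL2 and RN7SL3. Triangles are imbalanced dNTP libraries, open circles balanced dNTP libraries where the position is listed there, and bars the mean of the 3 imbalanced libraries. Positions 66 and 98 of RN7SL3 are above 7% in all 3 imbalanced libraries, and 11 of the 12 other RN7SL3 positions had at most 1 T read in at least 1 of these libraries.

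Only 2 of the 21 positions passed the site criteria used here. These ask in each of the 3 replicates for a depth of 10 or more, 3 or more T reads and a ratio more than 3 times the input's. The paper also sets a limit against the background of a spike-in, which was not applied here. A pass is therefore not the same as an Nm site of the paper. Both passing positions are G in RN7SL3, within the first 100 nt taken as Alu. Neither lies in the narrower Alu domain of the first and last 50 nt. Among all listed positions of the series with that depth in each imbalanced library, 26.7% passed (29651 of 110980), and among those whose lowest imbalanced depth lay in the range of the members, 16 to 151 reads, 15.2% passed (7978 of 52324). The 2 of 21 here, 9.52%, was above neither share. None of the 21 positions combined a pass with a depth of at least 100 in each imbalanced library. The 2 positions are shown with 10 nt on either side, with the position itself in capitals.
RN7SL3 position 66: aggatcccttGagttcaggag
RN7SL3 position 98: agtgcgctatGccgatcgggt

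At position 66 of RN7SL3 (chromosome 14, 49853849), T was read in 6 of 54, 4 of 39 and 7 of 73 reads under imbalanced dNTP. The ratios were 11.1%, 10.3% and 9.59%, with Wilson 95% intervals of 5.19% to 22.2%, 4.06% to 23.6% and 4.72% to 18.5%. Under balanced dNTP, T was read in 0 of 77, 0 of 34 and 1 of 69 reads. The mean ratio was 10.3% ± 0.76 (SD, n = 3), the smallest spread among the listed RN7SL3 positions.

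At position 98 of RN7SL3 (chromosome 14, 49853817), T was read in 6 of 40, 3 of 41 and 6 of 52 reads under imbalanced dNTP. The ratios were 15.0%, 7.32% and 11.5%, with a mean of 11.3% ± 3.8 (SD, n = 3). Under balanced dNTP, T was read in 0 of 100, 0 of 53 and 1 of 84 reads. Replicate 2 met the criterion on T reads with no read to spare.

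Position 66 was also listed in RN7SL1, where T was read in 1 of 128, 1 of 100 and 4 of 186 reads under imbalanced dNTP. These ratios of 0.781%, 1.00% and 2.15% were below those of RN7SL3 in 3 of 3 libraries. The difference of RN7SL3 minus RN7SL1 was 9.01 ± 1.5 percentage points (SD, n = 3, exact paired permutation p = 0.25, the smallest possible). Position 66 was taken up because it passed in RN7SL3, and at the lower depth of RN7SL3 the threshold of 3 T reads admits only higher ratios. The selection thus favours this direction, and no difference in level between the copies is concluded from the test. It was the only position at which 2 copies could be compared under imbalanced dNTP. Around it the copies differ at nt 62, 69 and 70, so that reads of RN7SL3 can be told from the others.

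Of the 6 positions in both tables, all were tested in the edgeR fit over the series and 4 had a higher mutated share under imbalanced dNTP at an adjusted p under 0.05. In the series 73.9% of 32284 tested positions were called in that direction. Listing favours this direction, since the imbalanced table asks for 3 T reads in a library and the balanced table for 1. The calls are therefore not independent of how positions entered the tables. The 4 lie between nt 66 and nt 99 of RN7SL3, close enough to stand in the same reads, so that they are not independent. The log2 fold change of the odds of T was 3.82 at position 66 (edgeR adjusted p = 0.0102) and 4.47 at position 98 (adjusted p = 0.00255). It was 3.54 at position 91 (adjusted p = 0.0221), a G with T in 1 of 57, 3 of 47 and 9 of 76 reads. At position 99, a C with T in 1 of 42, 7 of 43 and 3 of 52 reads, it was 3.66 (adjusted p = 0.0245). Replicate 1 of both had only 1 T read. The other positions did not pass. Position 83 of RN7SL3 had T in 0 of 62, 4 of 51 and 1 of 79 reads (log2 fold change 2.00, edgeR adjusted p = 0.268), and position 267 of RN7SL1 in 3 of 215, 0 of 151 and 0 of 219 reads (1.61, adjusted p = 0.354). No member was called lower, as were 18 positions of the series. The median log2 fold change was 3.60 over the 6 members and 3.94 over all tested positions.

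These edgeR calls rest on few reads. Without any single replicate, 0 of the 6 passed, and Fisher's exact test called 0 in all 3 replicates, with 2, 1 and 2 in the single ones. These counts have no share of the series beside them and are not read as particular to the members. None of the 4 had 50 reads in each of the 6 libraries.

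The remaining positions of RN7SL3 formed 1 run from nt 61 to nt 129. Position 61, the base before the difference at nt 62, had T in 3 of 25, 0 of 21 and 3 of 39 reads. Position 93 had T in 4 of 58, 3 of 44 and 2 of 74 reads. It missed the criterion on T reads in 1 library, replicate 3. Position 79 had T in 1 of 62, 2 of 50 and 5 of 80 reads, with the higher counts in the replicates 2 and 3. Position 129, the last of the run, had T in 1 of 17, 3 of 16 and 0 of 26 reads, so that the SD of its mean ratio, 8.21% ± 9.6, exceeded the mean. Of the 12 positions of RN7SL3 that did not pass, 11 had at least 1 library with no more than 1 T read.

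In RN7SL2 the 5 listed positions lay between nt 245 and nt 290. Position 262 came nearest to passing, with T in 2 of 180, 3 of 141 and 3 of 236 reads, or 1.5% ± 0.55 (SD, n = 3). Position 249 had all its T reads in 1 library, with 0 of 138, 5 of 111 and 0 of 181. Position 290, near the 3′ end, likewise had 4 of 98, 0 of 92 and 0 of 149. Position 274, next to the difference at nt 275, had T in replicate 3 only, in 3 of 260 reads.

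The difference in mutation ratio between the domains depended on how it was computed. Since no S position stood in both tables, the comparison was made over all 21 imbalanced positions. At 14 Alu positions the ratio was 2.52%, 2.97% and 2.96%, and at 7 S positions it was 2.90%, 4.37% and 1.69%. S was higher in replicates 1 and 2 and lower in replicate 3. The difference of S minus Alu was 0.171 ± 1.3 percentage points (SD, n = 3, exact paired permutation p = 0.75). With the Alu domain narrowed to the first and last 50 nt it was 2.12 ± 1.5 (p = 0.25, exact). The narrowed Alu domain holds no listed imbalanced position of RN7SL3, which gave 5 of the 7 S positions. The 2.12 therefore compares copies as well as domains. With equal weight for G, A and C the difference was 2.36 ± 3.5 (p = 0.50, exact). The copies enter the domains unequally, with RN7SL1 only in Alu. Within RN7SL3, the copy with most positions in both domains, Alu was 4.75%, 6.74% and 6.45% (9 positions) and S 4.6%, 6.43% and 3.81% (5 positions). The difference there was -1.03 ± 1.4 (p = 0.25, exact), lower in 3 of 3 replicates by 0.15 to 2.63, a mean smaller than its SD. The median imbalanced depth in RN7SL3 was 57, 44 and 74 reads in Alu and 39, 36 and 52 in S. At lower depth the threshold of 3 T reads admits only higher ratios. The domain ratios over listed positions are therefore not comparable as levels, and these tests cannot decide whether the domains differ.

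Depth was mostly lower under imbalanced than under balanced dNTP, at the members too. At the 6 positions in both tables, imbalanced over balanced depth had a median of 0.647, 0.85 and 0.866 in replicates 1, 2 and 3. Over 35761 positions of the series the median was 0.500, 0.661 and 0.714. Single members ranged from 0.400 to 0.712, 0.774 to 1.15 and 0.612 to 1.06, and 5 of the 6 lie close together in RN7SL3.

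RN7SK, RMRP and RPPH1 are other structured RNAs made by RNA polymerase III and long enough to pass the size limit. RN7SK holds the elongation factor P-TEFb in an inactive form, RMRP is the RNA of RNase MRP and RPPH1 that of RNase P. Under imbalanced dNTP the table listed 31 G, A or C positions of RN7SK (12.1% of them), 214 of RMRP (100%) and 209 of RPPH1 (75.5%), of which 5, 207 and 105 passed the site criteria. In edgeR, 4 of 9, 213 of 214 and 115 of 129 tested positions were higher. RMRP had a median imbalanced depth of 2037, 1816 and 2347 reads, far deeper than 7SL.

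Over its listed positions RN7SK had a mutation ratio of 2.79%, 2.56% and 2.72%, RMRP 3.02%, 3.14% and 2.96% and RPPH1 3.20%, 3.06% and 3.01%. RN7SL3 was the shallowest of the 6 RNAs and RMRP the deepest. Since a position needs 3 T reads to be listed, these ratios depend on depth, and no order of the RNAs is read from them.

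To set positions of like depth side by side, G, A and C positions were taken whose nearest listed balanced position, within 10 nt, had a lowest depth of 50 to 200 reads. Of 115 such positions in RN7SL1 (median 108 reads), 2 were listed under imbalanced dNTP, or 1.74%, and 0 passed. Of 49 in RN7SL2 (median 140 reads), 4 were listed and 0 passed. RN7SL3 had 9 of 26 listed and 1 passing, at a median of only 53.5 reads. In RN7SK (median 117 reads), 20 of 56 were listed, or 35.7%, and 2 passed. In RPPH1 (median 196 reads) 14 of 22 were listed and 5 passed, and RMRP had no position in this range (0). RN7SL1 was thus seldom listed at the depth of RN7SK, as a description of these libraries and with no test.

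**Figure D3:**
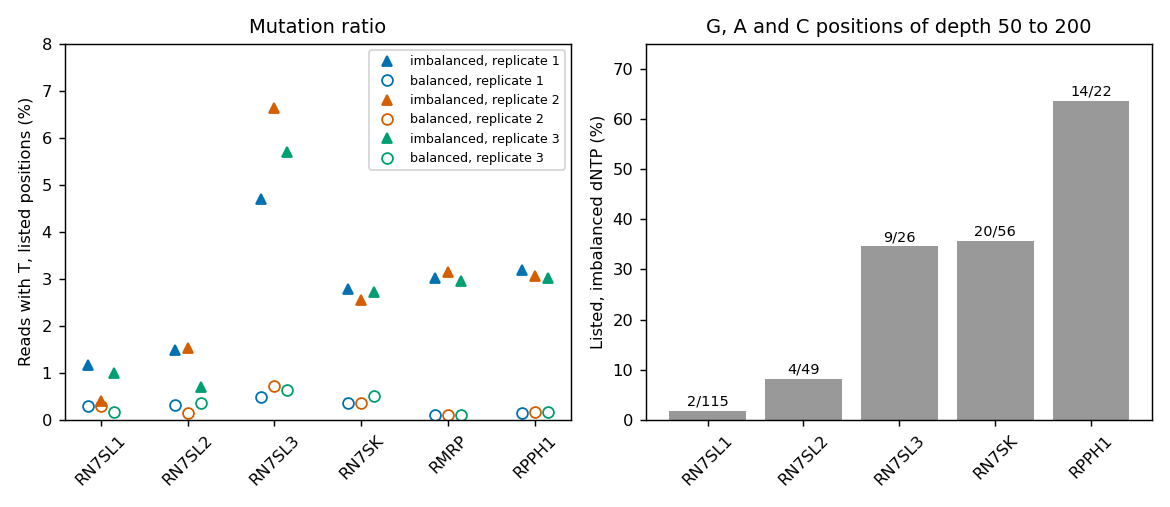
Left, reads with T in percent of the depth summed over listed positions (y axis) for 6 RNAs in the 3 imbalanced (triangles) and 3 balanced dNTP libraries (open circles). Right, percentage of G, A and C positions with a nearby balanced depth of 50 to 200 reads that were listed under imbalanced dNTP, with the counts above the bars; RMRP has no such position. The imbalanced ratios on the left depend on depth through the minimum of 3 T reads and give no order of the RNAs, and RN7SL1 has the lowest share on the right.

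Genes of the proteins around 7SL had few listed positions. Of the 9 genes SRP9, SRP14, SRP19, SRP54, SRP68, SRP72, SRPRA and SRPRB (the SRP receptor) and SSB (La, which binds the 3′ ends of RNA polymerase III transcripts), SRP54 had 5 imbalanced and 16 balanced positions and SRP68 had 0 and 5. The other 7 genes had no listed position, so that their depth is unknown. The median depth of SRP54 was 11, 9 and 9 reads under imbalanced dNTP. None of these positions could be tested in edgeR or passed the site criteria (0 of 5).

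Of 677 further genes with an RN7SL name, 11 had a listed position. They held 13 imbalanced and 10 balanced positions, and 0 passed. Of the 11 genes, 8 lie inside another gene on the same strand, as RN7SL141P does in FNDC3B (3 imbalanced and 3 balanced positions). In the 3 genes outside any other, 3 imbalanced positions and no balanced one (0) were listed, among them 1 of RN7SL5P at a depth of 7 reads in replicate 1.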

How the data were processed

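Nm-mut-seq of HepG2 caRNA gave 6 libraries, 3 of imbalanced and 3 of balanced dNTP. The authors used Cutadapt for adapters, BBMap to collapse molecular identifiers, TopHat2 on hg38 (up to 4 places per read) and JACUSA to tabulate bases. Deposited were raw counts of reads with each base, by strand and library. The score that JACUSA gave each position, also deposited, was left unused. The imbalanced table holds positions with at least 3 T reads in 1 library or more, the balanced table positions with at least 1, both with a depth of at least 5. No per-sample column was without a library (0).

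Positions inside the 3 genes (GENCODE release 44) were selected on the strand of the gene. The members and lists were chosen with earlier results of these data known. Uniqueness is the share of exact 50-mers (also 30-mers and 75-mers) over a nucleotide that occur once in hg38 on either strand. Site criteria were a depth of at least 10, at least 3 T reads and over 3 times the input ratio in all 3 replicates, with an input of 0 where unlisted. The spike-in criterion was not used here. Mutated and unmutated counts were tested by the quasi-likelihood F test of edgeR 4.0.16 (R version 4.3.3), adjusted after Benjamini-Hochberg over all 32284 positions, with library effects and the replicate number as a block, and with DESeq2 1.42.0 and Fisher's exact test as alternatives. The fit was tested on simulated data. Domain comparisons used exact paired permutation tests. The domain comparison of mutation ratios was planned over positions in both tables, but these include 6 Alu and 0 S positions, so all imbalanced positions were used. The comparison at matched depth was chosen after the data were seen. Named positions were to be, per copy, the 5 of highest ratio among those passing at a depth of at least 100, listed positions where the copies differ, and positions lower in edgeR. The first and last parts gave none (0), and the other positions named were chosen after their values were seen. Other software was Python 3.11.15, pandas 2.3.3, numpy 2.4.6, scipy 1.17.1 and, for plots, matplotlib 3.10.9.

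Libraries with the same number come from 1 ligated RNA, per the labels and methods. At 24432 deep positions, deviations of log2 depth correlated at 0.746, 0.590 and 0.871 within numbers, and at 0.699 and 0.599 between replicates 1 and 2. Between replicate 3 and the other replicates the correlation was -0.807 to -0.655. Summed depth was 17063930 to 22485865 reads (imbalanced) and 22974020 to 34367262 (balanced). Wilson 95% intervals cover counting error only. The complete sequences of the copies are not reported here.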

Additional observations from a re-analysis of the deposited data

How the results depend on the processing

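The number of positions of the copies called higher by edgeR was 4 with the replicate block and 4 without it, and also 4 with DESeq2 and without a depth filter. It was 0 with a depth of at least 50, where none of the 4 could be tested, 0 with Fisher's exact test in each replicate, and 0 to 0 when a replicate was left out. Site criteria were passed by 2 positions, and by 0 with a depth of at least 50, with at least 10 mutated reads or with a mutation ratio of at least 0.1. They were passed by 3 to 5 positions without 1 replicate (5 without replicate 1, 4 without replicate 2). With reads of the copies summed, an alternative chosen after seeing the data, 1 position passed (98), since position 66 of RN7SL1 is not in the balanced table and its input depth was missing. S minus Alu mutation ratio, 0.171, was 2.12 with narrow Alu borders, which leave no imbalanced Alu position of RN7SL3. It was 2.36 with equal weight of G, A and C and 0.677 as the median of positions. It was -1.03 in RN7SL3 alone (added after seeing the data). Without 1 replicate, over all copies, it was -0.444 to 0.891. S over Alu depth of RN7SL3 turned to 1.00 (log2) with narrow Alu borders. Depth of RN7SL1 over RN7SL2 was 1.04, and over RN7SL3 0.784 under balanced dNTP, at shared positions (added after seeing the data). The cause of the other changes was not tested. The comparison at positions listed in all 3 copies and the domain comparison at positions in both tables could not be run, as there were none. Over all results, 68 alternatives kept their direction and side, the values of 2.12, 2.36 and 0.677 among them. Of the others, 9 were weaker, 5 moved in value, 4 reversed and 2 were stronger. Many alternatives are variants of the same ratio and are not independent. Depth limits all ratios: with at most 80 reads at a listed imbalanced position of RN7SL3, 1 T read is over 1%.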
